A study of Hemigymnus melapterus and Thalassoma lunare and Coris batuensis with 46 samples.

Results

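The 40 genes described here were those whose mean level in a forebrain section was higher in each of 3 facultative cleaner wrasse species than in either of 2 non-cleaner species, by the widest margin. They were chosen from a table of 28134 genes with identifiers that begin with Ldim_g, of which 979 had a total of 200 or more counts over the libraries used. For each gene the species means of CPM, the counts of a gene scaled to a common total of gene counts, were put on the scale log2(mean CPM + 10). The gap of a gene is its lowest cleaner value minus its highest non-cleaner value on that scale, and 86 of the 979 genes had a gap above 0. The 40 with the largest gaps are the genes described, and they are numbered by rank from the largest gap. Levels of cleaners against non-cleaners chose these genes, so these levels are given as a description with no test.

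The series profiled 46 female wrasses, 1 library per fish. Fish labelled facultative cleaners were 9 Halichoeres melanurus, 10 Hemigymnus melapterus and 10 Thalassoma lunare, and those labelled non-cleaners were 9 Coris batuensis and 8 Labrichthys unilineatus. The labels name no treatment besides capture and state no age, and every library came from a 300 µm slice with the pallial areas Dl and Dm and parts of the septum and striatum. Death followed capture by 6 to 28 min, and the mean time in RNAlater was 3 h. These values are given for all fish alike, so the interval of a single fish is not known. Each species has 1 cleaning status, so fish repeat a species and not a status, and status and species identity cannot be told apart. The tissue label could not be checked against marker genes, because the files pair no identifier with a gene name.

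Facultative cleaners pick parasites and mucus from other fishes during part of their lives or as a part of their diet, whereas obligate cleaners live on what they remove. Labrichthys unilineatus feeds on corals, and the other 4 species take mostly small invertebrates of the reef floor. Dl and Dm are the teleost pallial regions usually set beside the hippocampus and the pallial amygdala of mammals, regions known for spatial learning and for emotional and social learning. A 3′ tag library reads 1 end of each polyadenylated transcript, so counts do not grow with transcript length. No molecular identifiers are named in the labels, so intervals and limits from counts cover counting error alone.

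The rule left out 3 libraries and used 43, from 26 cleaner and 17 non-cleaner fish. A library labelled Thalassoma lunare 4 and one labelled Halichoeres melanurus 2 each correlated best with the other of these 2 species over the 979 genes. The first had Pearson r = 0.916 with the mean of Halichoeres and 0.730 with its own label, and the second 0.910 with the mean of Thalassoma and 0.707 with its own label. The library labelled Hemigymnus melapterus 4 held 86674 reads and had 18.0% of them in genes, against 3.70% to 6.24% in the 43 libraries used. Those 43 libraries had 14927 to 59259 gene counts each, and depth was not even between species. The lowest species mean was that of Coris, 26908 ± 5725 (SD, n = 9). The highest was that of Labrichthys, 41779 ± 10154 (SD, n = 8). Both are non-cleaners, and the cleaner means lay between them. Hemigymnus stood at 28880 ± 8031 (SD, n = 9) and Halichoeres at 34847 ± 9129 (SD, n = 8). Thalassoma stood at 37590 ± 3400 (SD, n = 9). A single count was worth 16.9 to 67.0 CPM, so a level under about 100 CPM rests on a few reads.

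Over the 40 genes the lowest cleaner mean was 1.22 to 2.31 times the highest non-cleaner mean, with a median of 1.42. It was over 2 times in 3 genes and over 1.5 times in 18. Together the 40 genes held 26085 counts over the 43 libraries, and 3 of them (ranks 1, 21 and 29) held 44.2% of these. The other 37 had 217 to 1126 counts each, and the median over all 40 was 313.5. Their levels, averaged over the 5 species means, had a median of 218 CPM, against 295 CPM for the 979 genes. With CPM taken over all reads instead of gene counts, the median of all genes shifted by -0.10 on the log2 scale (cleaners minus non-cleaners), and 37 of the 40 genes kept a gap above 0. The 3 that did not were ranks 29, 33 and 34, with gaps of -0.05, -0.10 and -0.02. The margin between cleaners and non-cleaners was widest for a few genes and narrow for most.

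**Figure D1:**
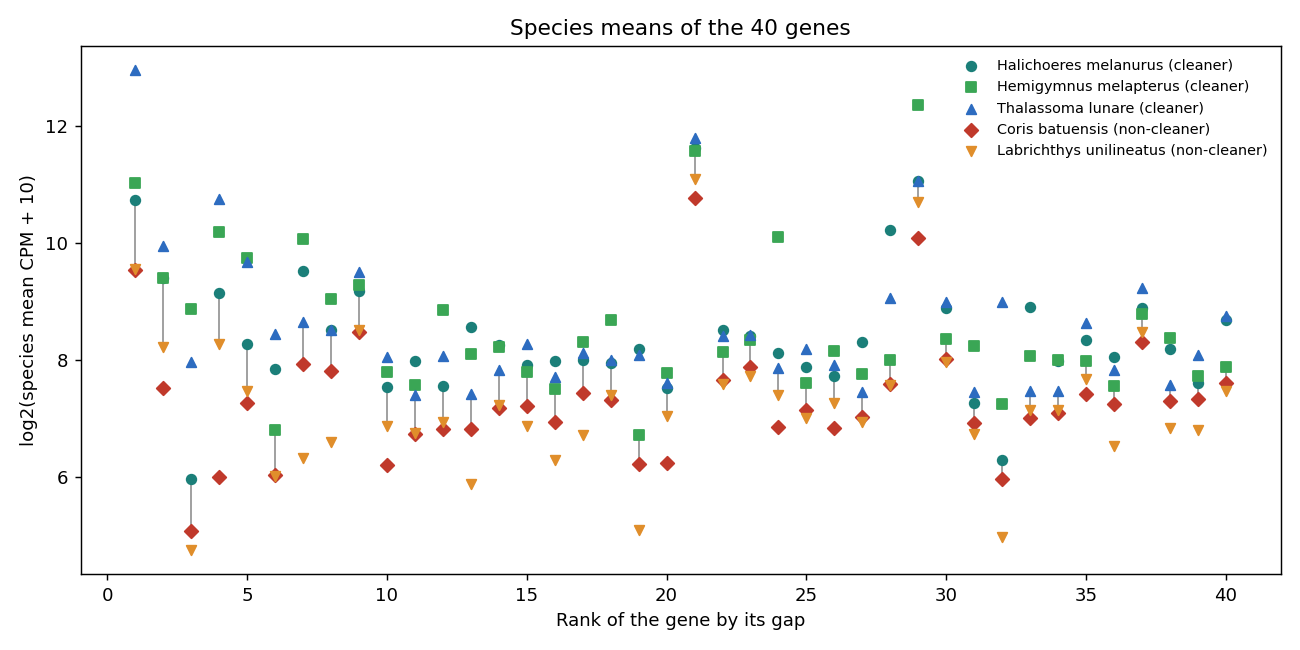
Species means of the 40 genes on the scale log2(mean CPM + 10) (vertical axis) in the order of their gap (horizontal axis). Each symbol is 1 species over its 8 or 9 fish, and the grey line runs from the higher non-cleaner mean to the lowest cleaner mean, a gap of 1.19 at rank 1 and 0.27 at rank 40.

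The share of all gene counts taken by the 40 genes was 1.92% ± 0.123 (SD, n = 8) in Halichoeres, with 1.80% in the lowest fish and 2.11% in the highest. It was 2.39% ± 0.156 (SD, n = 9) in Hemigymnus, from 2.09% to 2.59%, and 2.72% ± 0.191 (SD, n = 9) in Thalassoma, from 2.45% to 3.02%. In the non-cleaners it was 0.877% ± 0.0566 (SD, n = 9) in Coris, from 0.781% to 0.928%, and 0.967% ± 0.0604 (SD, n = 8) in Labrichthys, from 0.901% to 1.07%. Every cleaner fish lay above every non-cleaner fish, a separation that the choice of the genes by species means favours, so nothing is read from it. The high value of Thalassoma came in large part from the first gene, without which its share was 1.93% ± 0.0906 (SD, n = 9), below the 2.19% ± 0.154 (SD, n = 9) of Hemigymnus. Without ranks 1, 21 and 29 the shares were 1.22%, 1.36% and 1.37% in Halichoeres, Hemigymnus and Thalassoma, and 0.524% and 0.512% in Coris and Labrichthys. In a section of whole tissue, more cells of a type and more RNA per cell cannot be told apart.

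The share of reads left unaligned also differed between species, with a mean of 61.1% (SD 1.39, n = 9) for Thalassoma and 58.8% (SD 0.989, n = 8) for Halichoeres. Hemigymnus averaged 51.4% (SD 1.16, n = 9), Coris 58.1% (SD 0.594, n = 9) and Labrichthys 47.0% (SD 1.21, n = 8). Pooled by status, the unaligned share averaged 57.0% over the 26 cleaner fish used (SD 4.42), against 52.9% over the 17 non-cleaner fish (SD 5.76). These shares are of whole libraries and do not show how the reads of a single gene aligned. The same set of identifiers served every species, and the part that differences in alignment play in the level of any gene was not tested.

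Ldim_g5408 had the largest gap, 1.19. In Thalassoma its lowest, median and highest fish had 5649.7, 8417 and 9487 CPM (mean 7917 ± 1377, SD, n = 9). In Hemigymnus the same values were 1268, 2042 and 3011 CPM (mean 2075 ± 630.2, SD, n = 9). In Halichoeres they were 1318, 1688 and 2166 CPM (mean 1692 ± 259, SD, n = 8). Among the libraries used, the Thalassoma fish thus stood above all other fish, by a wide margin, and the other 2 cleaners overlapped each other.

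In Coris the gene had 394, 807 and 1003 CPM in the lowest, median and highest fish (mean 727 ± 249, SD, n = 9), and in Labrichthys 327, 803 and 962 CPM (mean 737 ± 207, SD, n = 8). The lowest cleaner fish, at 1268 CPM, was above the highest non-cleaner fish, at 1003 CPM. The raw counts were 228 to 382 per fish in Thalassoma, 24 to 86 in the other cleaners and 10 to 38 in the non-cleaners.

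Ldim_g22189 had the second gap, 1.18. Its lowest, median and highest fish had 503, 591 and 934 CPM in Halichoeres, 434, 637 and 1045 CPM in Hemigymnus, and 654, 942 and 1301 CPM in Thalassoma. In Coris they had 0, 197 and 281 CPM, and in Labrichthys 123, 304 and 397 CPM. The species means were 667 ± 154 (SD, n = 8), 662 ± 181 (SD, n = 9), 978 ± 210.1 (SD, n = 9), 174 ± 98.8 (SD, n = 9) and 287 ± 107 CPM (SD, n = 8), in the same order. The lowest cleaner fish, at 434 CPM, was above the highest non-cleaner fish, at 397 CPM. The cleaner libraries held 10 to 56 counts of this gene and the non-cleaner libraries 0 to 20, so the margin is one of few reads.

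**Figure D2:**
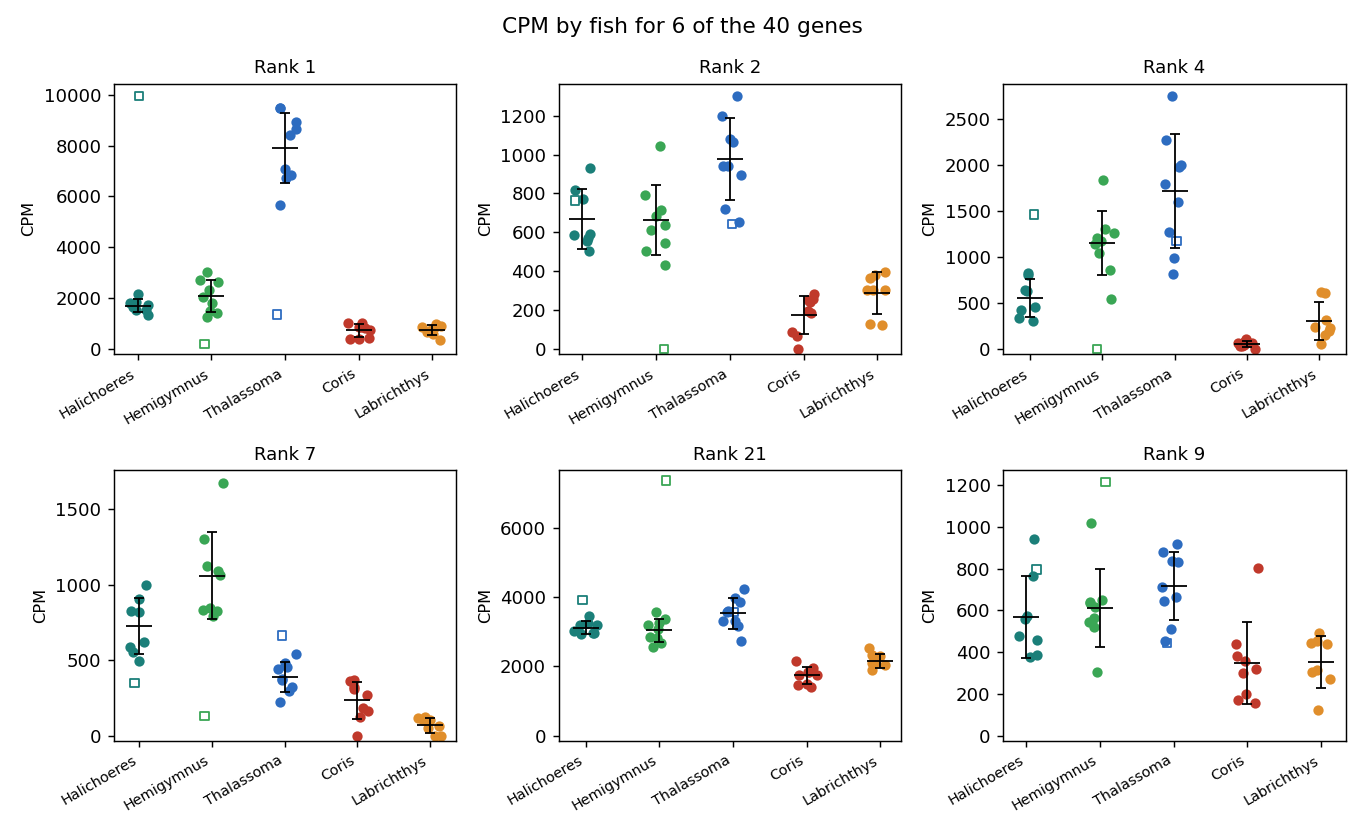
CPM of 6 of the 40 genes (vertical axes, each from 0) in each fish of the 5 species (horizontal axis), with the mean and SD of the libraries used as bars. Filled circles are the 43 libraries used and open squares the 3 left out. At rank 1 the left-out library labelled Halichoeres melanurus 2, at 9954 CPM, lies above every Thalassoma fish used.

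The gene ranked 3 (gap 0.90) was highest in Hemigymnus, where its lowest, median and highest fish had 306, 455 and 737 CPM. In Thalassoma they had 0, 114 and 667 CPM, a wide spread, and in Halichoeres 0, 50.7 and 126 CPM. The non-cleaners had 5 counts in all in Coris and 5 in Labrichthys, with medians of 0. In Halichoeres the whole level rested on 15 counts over 8 fish, so its place above the non-cleaners is thinly measured.

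The gene ranked 4 (gap 0.86) was lowest in Coris, where no fish had more than 3 counts (mean 53.7 ± 31.9 CPM, SD, n = 9). Labrichthys averaged 299 ± 206 CPM (SD, n = 8), Halichoeres 552 ± 202 (SD, n = 8), Hemigymnus 1150.3 ± 349 (SD, n = 9) and Thalassoma 1716 ± 621 (SD, n = 9). The highest Labrichthys fish, at 613 CPM, overlapped the Halichoeres fish, which ran from 302 to 824 CPM. Of 26 cleaner fish, 21 were above every non-cleaner fish.

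The gene ranked 5 (gap 0.80) had a Hemigymnus mean of 847 ± 458 CPM (SD, n = 9), a Thalassoma mean of 801 ± 338 (SD, n = 9) and a Halichoeres mean of 298 ± 94.4 (SD, n = 8). Coris and Labrichthys had 143 ± 79.4 (SD, n = 9) and 167 ± 60.3 CPM (SD, n = 8). The gene ranked 6 (gap 0.78) was a low one, with 27 counts over the 9 Hemigymnus fish, 14 over the 9 Coris fish and 17 over the 8 Labrichthys fish, so its lower bound among cleaners is a difference of few reads.

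The gene ranked 7 (gap 0.72) had its highest level in Hemigymnus, with 796, 1063 and 1676 CPM in the lowest, median and highest fish. In Halichoeres these were 494, 722 and 998 CPM, and in Thalassoma 223, 373 and 543 CPM. In Coris they were 0, 267 and 367 CPM, and in Labrichthys 0, 81.7 and 121 CPM. Thalassoma and Coris overlapped, and Labrichthys stood below every cleaner fish.

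The gene ranked 8 (gap 0.69) had a Halichoeres mean of 353 ± 64.1 CPM (SD, n = 8), a Hemigymnus mean of 513 ± 196 (SD, n = 9) and a Thalassoma mean of 353 ± 150.5 (SD, n = 9). Coris averaged 214 ± 70.3 (SD, n = 9) and Labrichthys 86.2 ± 51.6 (SD, n = 8). The gene ranked 9 (gap 0.66) was close to even within each status, with 567 ± 197 (SD, n = 8), 609.9 ± 187 (SD, n = 9) and 717 ± 163 CPM (SD, n = 9) in the cleaners in the same order and 347 ± 197 (SD, n = 9) and 354 ± 124 CPM (SD, n = 8) in the non-cleaners. Its fish overlapped nevertheless, since the library labelled Coris batuensis 10 had 804 CPM from 12 counts, and 6 of 26 cleaner fish were above every non-cleaner fish.

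The genes ranked 10 to 12 had gaps of 0.66, 0.65 and 0.61 and means between 63.4 and 449 CPM in each species. Cleaner and non-cleaner fish overlapped in all 3, and 16, 12 and 12 of the 26 cleaner fish were above every non-cleaner fish. From rank 13 on the gaps ran from 0.60 down to 0.27, and the ratio of the lowest cleaner mean to the highest non-cleaner mean from 1.56 to 1.22. The last genes taken, ranks 39 and 40, had gaps of 0.283 and 0.272, and the first 2 not taken had 0.271 and 0.255, so the border of the set falls within a run of near-equal values.

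Among these later genes, the one ranked 21 was the most abundant of the 40 when the 5 species means were averaged, at 2717 CPM. Halichoeres averaged 3119.6 ± 180.2 CPM (SD, n = 8), Hemigymnus 3039 ± 336 (SD, n = 9) and Thalassoma 3526 ± 456 (SD, n = 9). Coris averaged 1734 ± 252 (SD, n = 9) and Labrichthys 2166 ± 203 (SD, n = 8). Its spread between fish, as the biological coefficient of variation from edgeR, was 0.104, and 3.06% of all tested genes had a lower one. Genes of like level were not compared. Its fish did not overlap between cleaners and non-cleaners, though the nearest fish had 2546 and 2535 CPM.

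The gene ranked 29 (gap 0.36, or -0.05 with CPM over all reads) was also abundant and was set apart by Hemigymnus, with 5219 ± 1085 CPM (SD, n = 9). It had 2107 ± 629 (SD, n = 8) in Halichoeres and 2113 ± 620.4 (SD, n = 9) in Thalassoma, and 1070.4 ± 218 (SD, n = 9) and 1645 ± 267 (SD, n = 8) in Coris and Labrichthys. The genes ranked 24, 28 and 32 likewise had 1 cleaner far above the rest. They reached 1081.5 ± 193 CPM (SD, n = 9) in Hemigymnus, 1177 ± 205 (SD, n = 8) in Halichoeres and 498 ± 141 (SD, n = 9) in Thalassoma, while their lowest cleaner means, 223, 244 and 68.1 CPM, were near the higher non-cleaner means of 159, 183 and 52.4 CPM.

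Fish by fish, 3 of the 40 genes (ranks 1, 2 and 21) had every cleaner fish above every non-cleaner fish, and they were the only ones among the 979 genes, of which they make 0.306%. The rule used these levels, so nothing is read from that share. No gene of the 979 had every cleaner fish below every non-cleaner fish. With totals scaled by TMM, a normalization in edgeR that downweights extreme genes, 1 of the 3 (rank 1) kept this separation, and with DESeq2 size factors, a scaling added after seeing the data, ranks 1 and 2 kept it. In the 40 genes the median share of cleaner fish above every non-cleaner fish was 51.9%, against 3.85% over the 979. By medians instead of means, 38 of the 40 genes kept all 3 cleaners above both non-cleaners. The means of the same fish chose the genes, and no such count was made over the 979. Nothing is therefore read from the 38.

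Species of the same status were compared in an edgeR quasi-likelihood fit over the 43 libraries, where 28 of the 40 genes passed the filter on low counts and 12 did not. The rule used the lowest cleaner and the highest non-cleaner mean of each gene, and so favours genes whose means lie close within a status. These comparisons are therefore not independent of the rule, and nothing is read from how the counts of members stand to the shares of all genes. Among the 28 tested genes, 6 differed between Coris and Labrichthys at an edgeR adjusted p below 0.05 (p-values adjusted over all 752 genes by Benjamini-Hochberg), where 58.6% of all tested genes did. Of these 6, 2 were higher in Coris (28.1% of all tested genes) and 4 in Labrichthys (30.6%).

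The gene ranked 4 differed most between the 2 non-cleaners, where Coris over Labrichthys came to -2.43 on the log2 scale (SE 0.47, edgeR adjusted p = 9.26e-06). The gene ranked 7 differed the other way, by 1.67 (SE 0.36, edgeR adjusted p = 6.11e-05), as did the gene ranked 8, by 1.32 (SE 0.34, edgeR adjusted p = 0.000683). The genes ranked 29, 21 and 2 were higher in Labrichthys, with log2 fold changes of -0.65, -0.39 and -0.73 (edgeR adjusted p = 0.000586, 0.00122 and 0.0279). So the low level shared by the non-cleaners was not equally low, and for ranks 4 and 7 the 2 species had opposite orders.

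The pairs of cleaner species were compared in the same fit. Hemigymnus and Thalassoma differed in 18 of 28 (64.5% of all tested genes), 9 higher in Hemigymnus (32.6%) and 9 higher in Thalassoma (31.9%). With upper-quartile scaling 13 differed (65.3% of all tested genes), 3 higher in Hemigymnus and 10 in Thalassoma. For this scaling no share by direction was counted over all tested genes. Halichoeres and Hemigymnus differed in 12 of 28 (59.3%), 3 higher in Halichoeres (29.1%) and 9 in Hemigymnus (30.2%). Halichoeres and Thalassoma differed in 10 of 28 (54.5%), 4 higher in Halichoeres (27.3%) and 6 in Thalassoma (27.3%).

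**Figure D3:**
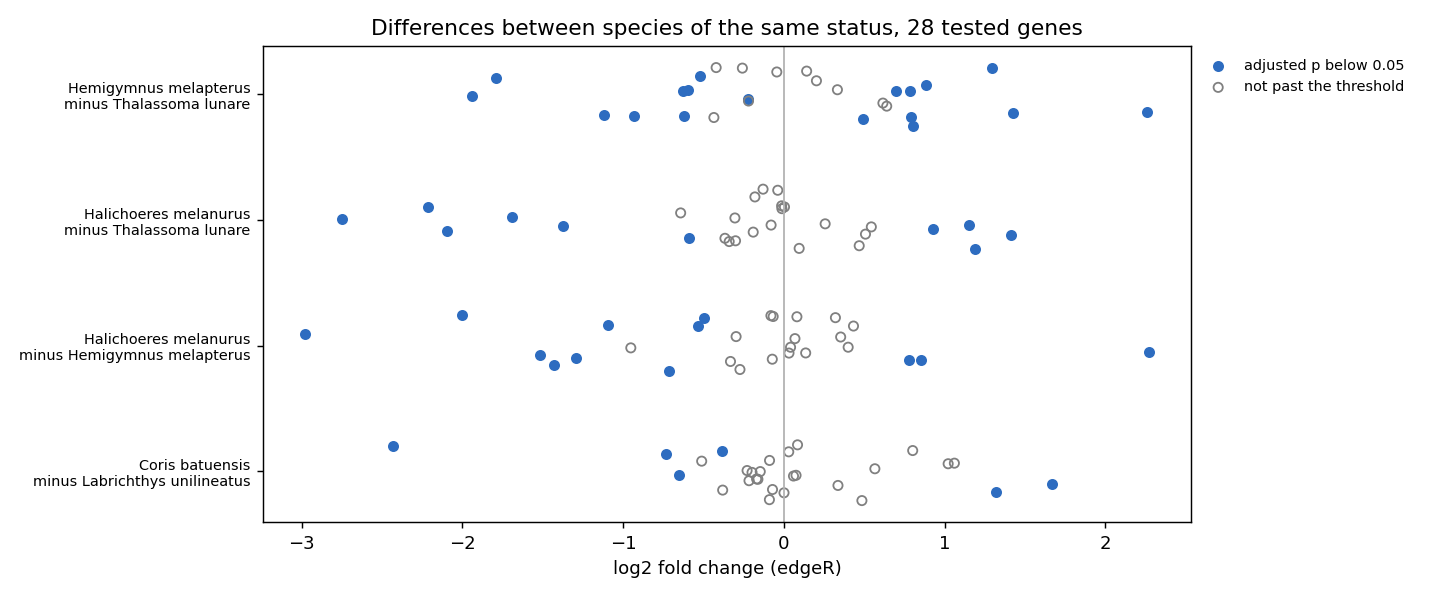
Log2 fold changes from edgeR (horizontal axis) between species of the same status (vertical axis) for the 28 tested genes. Filled points have an adjusted p below 0.05 and open points do not, and the genes spread to both sides of 0 in every pair.

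Ldim_g5408 was higher in Thalassoma than in the other cleaners. On the log2 scale Halichoeres over Thalassoma came to -2.22 (SE 0.15, edgeR adjusted p = 2.98e-20) and Hemigymnus over Thalassoma to -1.94 (SE 0.14, edgeR adjusted p = 2.66e-18). All 9 Thalassoma fish were above all 17 other cleaner fish. Halichoeres and Hemigymnus had -0.27 (SE 0.16, edgeR adjusted p = 0.138), and Coris and Labrichthys -0.07 (SE 0.20, edgeR adjusted p = 0.787), neither past the threshold.

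Ldim_g22189 was higher in Thalassoma than in Halichoeres and in Hemigymnus, with log2 fold changes of the other species over Thalassoma of -0.59 (SE 0.20, edgeR adjusted p = 0.00881) and -0.52 (SE 0.19, edgeR adjusted p = 0.0147). Its calls between Coris and Labrichthys and between Halichoeres and Thalassoma were not past the threshold without the filter on low counts (edgeR adjusted p = 0.0612 and 0.0562). The call between Halichoeres and Thalassoma was also not past it with all 46 libraries (edgeR adjusted p = 0.0582). Halichoeres over Hemigymnus came to -0.07 on the log2 scale (SE 0.21, edgeR adjusted p = 0.805).

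Of the 28 tested genes 20 differed in at least 1 pair of cleaners (85.2% of all tested genes) and 4 in all 3 pairs (18.1%), at ranks 3, 4, 7 and 28. The gene ranked 28 was ordered Halichoeres, Thalassoma, Hemigymnus from high to low, with Halichoeres over Hemigymnus at 2.27 (SE 0.23, edgeR adjusted p = 2.77e-13). The gene ranked 7 was ordered Hemigymnus, Halichoeres, Thalassoma, with Hemigymnus over Thalassoma at 1.42 (SE 0.21, edgeR adjusted p = 3.47e-08). The gene ranked 4 was ordered Thalassoma, Hemigymnus, Halichoeres, with Halichoeres over Thalassoma at -1.69 (SE 0.24, edgeR adjusted p = 1.09e-08). The gene ranked 3 was ordered Hemigymnus, Thalassoma, Halichoeres, with Halichoeres over Hemigymnus at -2.98 (SE 0.47, edgeR adjusted p = 1.67e-07).

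By species means, Thalassoma was the highest cleaner in 16 of the 40 genes, Hemigymnus in 14 and Halichoeres in 10, and over the 979 genes these shares were 35.1%, 33.3% and 31.6%. Halichoeres was the lowest cleaner in 16, Hemigymnus in 15 and Thalassoma in 9, against 28.4%, 38.6% and 33.0% over the 979. The higher non-cleaner was Coris in 21 genes and Labrichthys in 19, against 50.1% and 49.9% over the 979. The highest cleaner mean was a median of 1.58 times the lowest over the 40 genes, and 2.15 times over the 979, a closeness that the rule favours. No single cleaner or non-cleaner species set the margin throughout the 40 genes, a description that is not read as a trait of these genes.

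The 3 libraries that the rule left out took no part in the choice themselves. In the library labelled Halichoeres melanurus 2, 37 of the 40 genes were above the higher of the 2 non-cleaner means, as were 35.6% of the 979 genes. In the library labelled Thalassoma lunare 4 it was 34 of 40, against 31.1% of the 979. The cleaner fish used had 33 to 38 such genes in Halichoeres, 29 to 39 in Hemigymnus and 34 to 37 in Thalassoma. Against the highest single non-cleaner fish instead of the mean, the 2 libraries had 20 and 17 of the 40 genes above, where 14.2% and 12.3% of the 979 genes were. The non-cleaner levels set against them were used by the rule, as were the Halichoeres and Thalassoma means that these 2 libraries resemble. High counts are thus favoured by the choice of the genes and are not independent of it. Each is 1 library, so no test was made.

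In these 2 libraries the levels of the 40 genes were more often near the species they resembled than near the species on the label. Nearness was not counted over the other genes, so it is not read as a trait of the 40. The library labelled Halichoeres melanurus 2 was nearer to the Thalassoma mean in 29 of the 40 genes, and in 6 of the 8 genes whose means differed at least 2-fold between these species. The library labelled Thalassoma lunare 4 was nearer to the Halichoeres mean in 28 genes, and in 7 of those 8. Ldim_g5408 had 9954 CPM in the first, above every Thalassoma fish used, and 1351 CPM in the second, within the range of Halichoeres. Both species are labelled cleaners, so the count of genes above the non-cleaners does not depend on which label is right.

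The library labelled Hemigymnus melapterus 4 gave lower counts of such genes. In it 5 of the 40 genes were above the higher non-cleaner mean, where 13% of the 979 genes were. Above the highest single non-cleaner fish were 4 of the 40, where 10.2% of the 979 were. Both counts are near the share over all genes, so nothing is read from them about the 40 genes. No count was found for 19 of the 40. It detected 1607 genes, where the libraries used detected 2910 to 6191, and 1 count was worth 64.0 CPM, and the median level of the 40 genes was 218 CPM. Ldim_g5408 had 192 CPM and Ldim_g22189 no count in this library, while the gene ranked 21 had 7360.0 CPM, above all other fish. A count of 0 there allows up to 192 CPM (3 counts of its total), which covers counting error alone.

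**Figure D4:**
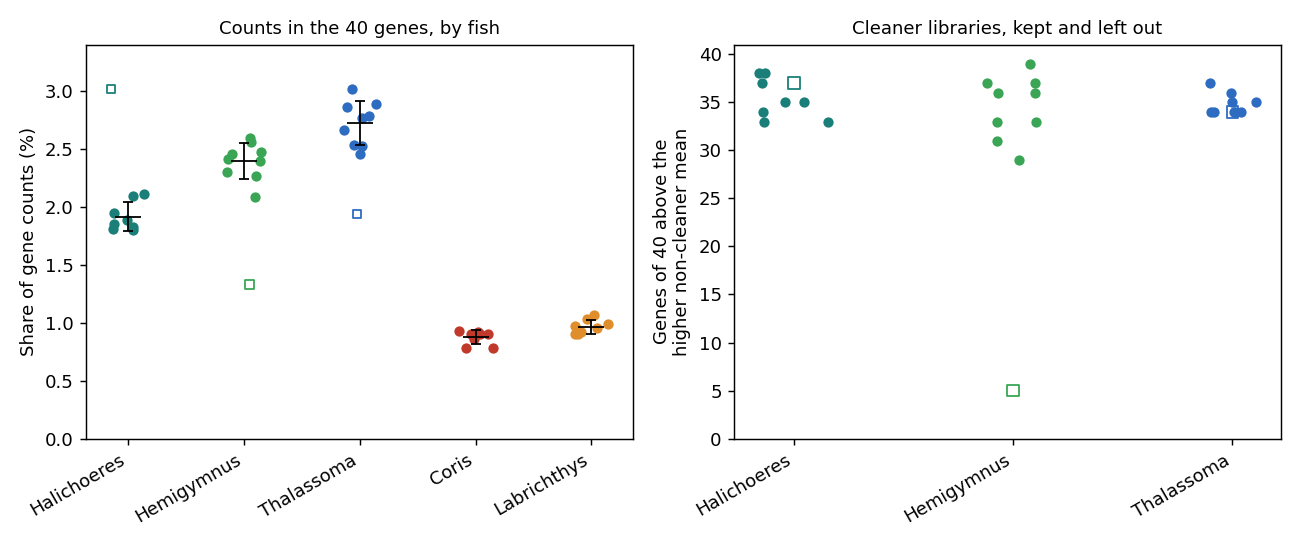
Left, the share of gene counts in the 40 genes (vertical axis, percent) in each fish by species, with mean and SD of the libraries used. Right, the number of the 40 genes above the higher non-cleaner mean in each cleaner library. Open squares are the 3 libraries left out, at 37, 5 and 34 genes from left to right.

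Spread among fish of 1 species, relative to the mean, was larger in the non-cleaners, whose low levels in these genes the rule favours. Relative spread rises as counts fall, so nothing is read from this difference between cleaners and non-cleaners. The median coefficient of variation of CPM over the 40 genes was 56.0% in Coris and 44.2% in Labrichthys, against 39.3% and 33.5% over the 979 genes. In Halichoeres, Hemigymnus and Thalassoma it was 38.3%, 40.7% and 34.3%, against 34.7%, 38.6% and 32.5%. The counts behind the non-cleaner levels were low, and 7.78% of the values of the 40 genes were 0 in Coris and 7.19% in Labrichthys, against 1.25%, 0.278% and 0.278% in the cleaners in the same order. The biological coefficient of variation estimated by edgeR had a median of 0.231 over the 28 tested genes and 0.185 over all 752.

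Joint variation among fish of a species was about the same in the 40 genes as over all 979, so it is not read as a trait of the 40. Over the 43 libraries, the Pearson r of deviations from the species means on the scale log2(CPM + 10) had a median of 0.0034 over the 780 pairs of the 40 genes, and 0.0024 over all pairs of the 979. It was above 0.5 in 4 pairs, or 0.513% of the pairs, and in 0.451% of all pairs. The highest value, 0.56, was between ranks 7 and 16. Libraries share depth and species, so these correlations are a description. The median total of the 40 genes was 313.5 counts over the 43 libraries. Deviations of most of them thus rest on few counts per fish, and joint variation could be missed.

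The other deposited table of these libraries, on identifiers that begin with ENSONIT, was searched by deviations from the species means alone. This gave no clear counterpart to any of the 40 genes. For most of them the deviations rest on few counts per fish, so a counterpart could be missed. The transcript with the most similar deviations had r between 0.42 and 0.74, with the next transcript lower by a median of 0.03. Of these nearest transcripts, 6 were themselves higher in every cleaner species mean than in both non-cleaners, with gaps of 0.21 to 2.28. The share over all ENSONIT transcripts was not computed, so nothing is read from this count. Which ENSONIT transcript, if any, stems from the same gene is not stated here, because the nearest and next transcripts had similar r.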

How the data were processed

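Forebrain sections were measured by 3′ tag sequencing, 1 library per fish. Per the labels' protocols the RNA was fragmented, copied from a poly-dT oligo and amplified by PCR, and BWA, SAMtools and cutadapt 2.8 were used, per the submitters' processing notes. For the counting tool, the reference and its build, nothing is stated in the labels used here. The authors deposited whole-number counts per Ldim_g identifier and library. Lines that name no gene held 95.2% of the reads pooled over the 46 libraries and were left out of totals.

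CPM was computed over the Ldim_g lines. Members were ranked by the gap, with a pseudocount of 10 CPM, a minimum total of 200 counts and 43 of 46 libraries. The genes, rules and lists were chosen with earlier results of these data known. Species of the same status were compared in R 4.3.3 with the quasi-likelihood test of edgeR 4.0.16 on TMM-scaled counts, species as the term and all 5 species in the fit. Genes were filtered by filterByExpr (minimum count 10, minimum total 15), which left 752 genes, and p-values were adjusted by Benjamini-Hochberg over these. The procedure was tested on simulated counts with 1 spread for all genes and changes in Coris alone, a simpler setting than the data. Between Coris and Labrichthys it called 94 of 112 genes changed 2-fold, 82 of 88 changed 4-fold and 7 of 483 unchanged. Changed genes that failed the filter count as not called. Alternatives were DESeq2 1.42.0, other scalings, filters, pseudocounts, medians, all libraries, a block on the sample number and leaving out libraries.

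By rule, ranks 1 to 12 are described in turn, with the genes that differed in the most pairs of 1 status (ranks 4 and 7) and both sides of the border at rank 40. The other ranks singled out (21, 24, 28, 29 and 32) were chosen after their values were seen. Marker and pathway lists went unused because the identifiers carry no names, and only the first 2 identifiers are printed.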

Additional observations from a re-analysis of the deposited data

Results flagged for a closer look

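Dixon's test at the 95% level was applied to 17 of the 40 genes in each of the 5 species, 85 groups of 8 or 9 fish, and 10 groups had a library far from the others. About 1 in 20 groups would be flagged if values were normally distributed. CPM from a few counts need not be, and some of the 17 genes were chosen after their values were seen. The number of flags is therefore not set against that rate. No explanation was tested for any of them.

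In Coris, the library labelled Coris batuensis 10 was high for the gene ranked 9, at 804 CPM (the next fish had 440.2), and low for the gene ranked 29, at 536 CPM (the next had 1003). It had the smallest total of the libraries used, and these levels rest on 12 and 8 counts. The library labelled Coris batuensis 6 was high for the gene ranked 8, at 373 CPM from 12 counts (the next had 235).

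In Labrichthys, library 6 was high for the gene ranked 3, at 94.6 CPM from 3 counts, and library 5 was high for the gene ranked 6, at 212 CPM from 7 counts. Library 8 was low for the gene ranked 24, at 0 CPM where the next fish had 135 CPM.

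Among the cleaners, the library labelled Hemigymnus melapterus 2 had 1019 CPM of the gene ranked 9 (the next fish had 649.8). Halichoeres melanurus 9 had 755 CPM of the gene ranked 24 (the next had 326). For the gene ranked 29, Halichoeres melanurus 1 had 3501 CPM (the next had 2189) and Hemigymnus melapterus 5 had 7789 CPM (the next had 5816). The genes ranked 24 and 29 thus each had fish well above the rest of their species, within species whose mean stayed above the non-cleaners.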

How the results depend on the processing

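The set depended most on the minimum total. With at least 100 counts, 166 genes had a gap above 0 and 25 of the 40 stayed among the first 40, and with at least 500 counts these were 33 and 12, the latter because fewer genes were eligible. Leaving out each library in turn kept 36 to 40 of the 40 genes and gave 79 to 90 genes with a gap above 0, and 24 genes stayed in throughout. Ranks 1, 2, 4, 5, 7, 9 and 21 also stayed under all 10 other settings. Among the 40 genes, every cleaner fish was above every non-cleaner fish in 1 with TMM-scaled totals and 1 with all 46 libraries (rank 21). It was 1 with CPM taken over all reads (rank 1) and 2 with DESeq2 size factors, a choice made after seeing the data. The other genes were not counted under these settings, so no share over all genes is given. With CPM over all reads 65 genes had a gap above 0, and 3 of the 40 lost theirs. Against the highest single non-cleaner fish, the libraries labelled Halichoeres melanurus 2 and Thalassoma lunare 4 had 20 and 17 of the 40 genes above (14.2% and 12.3% of the 979).

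Counts of members that differed between species of 1 status ran from 5 to 7, 10 to 13, 9 to 13 and 12 to 18 over all settings (Coris with Labrichthys, Halichoeres with Hemigymnus, Halichoeres with Thalassoma, Hemigymnus with Thalassoma). The counts are out of 28 tested members, or 27 with all 46 libraries and 40 without the filter on low counts. With the filter, all tested genes gave 50.9% to 59.7%, 53.9% to 59.9%, 40.1% to 56.1% and 60.7% to 65.3% in this order. Without that filter 5, 11, 10 and 12 of the 40 differed (10.8%, 9.28%, 8.48% and 11.3% of all tested genes). Without Coris batuensis 10, a choice made after seeing the data, 6, 13, 10 and 16 of 28 differed (58.5%, 59.9%, 54.5% and 64.3% of all tested genes). Differences not past the threshold changed sign in 4 cases: Ldim_g5408 at 0.0078 for Coris over Labrichthys with upper-quartile scaling and 0.40 for Halichoeres over Hemigymnus with all libraries, and Ldim_g22189 at 0.030 for the latter pair both without a filter and with all libraries. The cause was not tested.

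No pairing of fish by sample number was seen, though a weak one could be missed. Deviations of same-numbered libraries of different species had a mean r of -0.0069 over 73 pairs, against 0.00074 over 666 pairs of other numbers. The r was above 0.1 in 6 and 48 of these pairs. Of 43 libraries, 3 correlated best with their own number. With a block on the number the counts were 6, 12, 10 and 15 (57.3%, 57.7%, 53.6% and 64.0% of all tested genes), and Ldim_g5408 passed the threshold between Halichoeres and Hemigymnus (log2 fold change -0.36, edgeR adjusted p = 0.0409). Depth limits the genes under about 100 CPM, where a fish has a few counts.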
